A study of Rattus norvegicus with 14 samples.

Results

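The genes described here encode enzymes, and 1 receptor, that handle adenine, adenosine and the other purines, in thoracic aortas of rats whose kidneys were damaged with adenine. They are 10 named genes, Adk, Aprt, Hprt1, Pnp, Ada, Ampd3, Xdh, Nt5e, Entpd1 and Adora2a, out of 14217 genes that the array annotation names by a single symbol. They were chosen by name, with earlier results of these data known, and were measured by 13 of 31042 probe sets. A gene with several probe sets is represented by the one with the highest mean over all arrays. Groups of Sprague-Dawley rats were compared, 8 samples with the treatment label A-CRF, chronic renal failure induced by adenine, and 6 labelled Control, each on 1 single-colour Affymetrix array for rat. The labels used here give neither the dose, route or length of adenine treatment nor the rats' age and sex. Whether the samples came from separate animals is not stated either, so a p-value here refers to the spread among samples, part of which can be technical.

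Adenine is normally recycled to AMP by Aprt, and an excess of it is oxidised by Xdh to a poorly soluble product that crystallises in kidney tubules, which is how adenine feeding injures the kidney. Adenosine, the nucleoside of adenine, is made outside cells from ATP by the successive action of Entpd1 and Nt5e, and in vessels it acts on receptors that relax smooth muscle and restrain leukocytes. Inside cells it is returned to AMP by Adk or turned into inosine by Ada, after which Pnp releases hypoxanthine, and Hprt1 salvages the base or Xdh oxidises it to urate.

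Of the 10 genes, Adk fell and Nt5e rose in A-CRF aortas, and the other 8 did not pass the test. In bulk tissue fewer cells of a type and less RNA per cell cannot be told apart. The test was limma on all 14 arrays, with an adjusted p (Benjamini-Hochberg over all 31042 probe sets) of 0.05 as the threshold. Over all named genes 2.99% were called in either direction, 1.93% as higher and 1.06% as lower in A-CRF, and among the 8151 genes whose mean exceeded the table's lowest value, 4.82, by over 1 log2 unit, the share was 4.31%. The median size of the log2 fold change was 0.13 over the 10 genes, against 0.03 over all genes and 0.06 over those 8151. At an unadjusted p under 0.05 there were 6 of the 10 genes, against 18.6% of all genes and 2047 of the 8151. Because the 10 genes were chosen with earlier results of these data known, these shares are a description and no test of the set. For none of the 10 genes were the groups fully apart on the log2 scale, whereas 1.99% of all genes had groups that did not overlap. Ada, Ampd3, Entpd1 and Adora2a had means within 1 log2 unit of the lowest value of the table, and the remaining 6 genes had higher means.

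**Figure D1:**
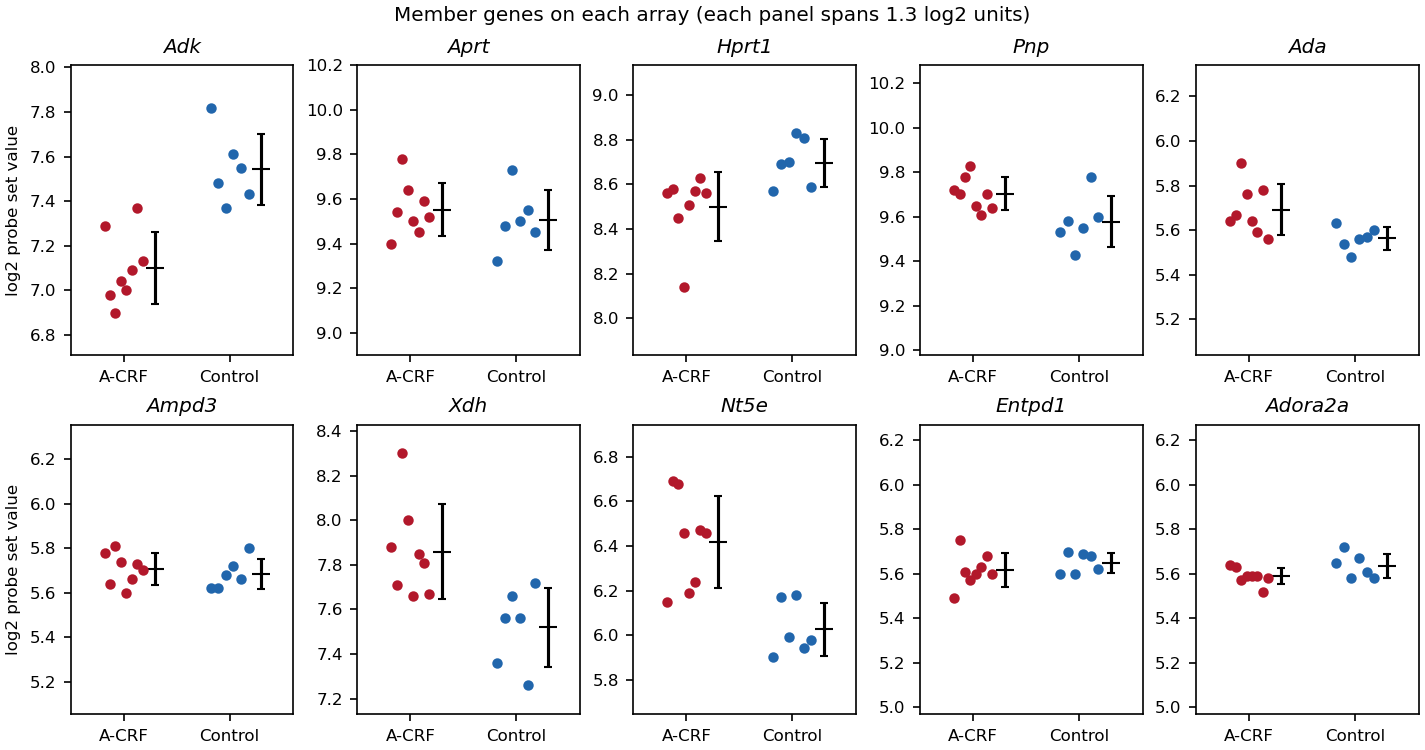
Deposited log2 value of each of the 10 genes on each array, A-CRF (red, 8 arrays) and Control (blue, 6 arrays), with the group mean and SD as a black bar beside the points. The A-CRF points lie below all Control points on 7 of 8 arrays for Adk and above all of them on 7 of 8 arrays for Nt5e, while Aprt, Ampd3, Entpd1 and Adora2a overlap broadly.

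Some arrays stood apart. The 3' probe set of GAPDH exceeded the 5' one by 1.58 to 1.90 log2 units on A-CRF 1 and 4 and Control 1, as happens with shortened transcripts, and by 0.37 to 0.55 on the others. Without these 3 arrays the same 2 genes passed, Adk at -0.41 ± 0.08 log2 units (SE, adjusted p = 0.0205) and Nt5e at 0.40 ± 0.09 (adjusted p = 0.0476). A score of clock genes, whose levels normally vary over the day, lay between -2.57 and 1.74 on A-CRF arrays and between -0.70 and 1.83 on Control arrays. It was -2.57 to -1.02 on A-CRF 1 to 5 and 0.90 to 1.74 on A-CRF 6 to 8, and what set it was not tested. With the score as a covariate, none of the 10 genes passed limma, with 3 at an unadjusted p under 0.05 (adjusted p = 0.0801 for Adk and 0.114 for Nt5e). The estimates in that fit were -0.43 ± 0.10 log2 units for Adk and 0.42 ± 0.10 for Nt5e (SE). The labels give no time of collection, scan date or other batch.

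Adk encodes adenosine kinase, which phosphorylates adenosine to AMP and so clears it from the cell. Its representative probe set read 6.90, 7.06 and 7.37 log2 units as the lowest, median and highest value on the 8 A-CRF arrays, against 7.37, 7.52 and 7.82 on the 6 Control arrays. All A-CRF arrays lay below the Control median, and 7 of 8 lay below every Control array, the exception being A-CRF 7. A-CRF averaged 7.10 ± 0.16 (SD, n = 8) and Control 7.55 ± 0.16 (SD, n = 6), a log2 fold change of -0.45 ± 0.08 (SE, limma, adjusted p = 0.0139), or a 1.36-fold lower level in A-CRF. The list mean of 10 smooth muscle markers had a median of 9.67 in A-CRF and 9.79 in Control, with overlapping ranges, 1 marker called as lower and 3 at an unadjusted p under 0.05, and their part in the Adk value was not tested. A second probe set that the annotation assigns to Adk had a weaker signal. A-CRF averaged 5.95 ± 0.11 log2 units (SD, n = 8) and Control 6.16 ± 0.04 (SD, n = 6) there, a log2 fold change of -0.21 ± 0.05 (SE, limma, adjusted p = 0.0318). Both probe sets were thus lower in A-CRF, and on the second one A-CRF 7 was again the highest A-CRF array, at 6.18. The representative probe set kept its call whichever of the 14 arrays was left out (highest adjusted p = 0.0376). With an exact rank-sum test its adjusted p was 0.0635. That test could call only probe sets whose groups were fully apart (adjusted p = 0.0482). The Adk groups overlapped at A-CRF 7, so the rank-sum test could not call the gene.

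Nt5e encodes CD73, the cell-surface enzyme that turns extracellular AMP into adenosine. Its only probe set read 6.15, 6.46 and 6.69 log2 units as the lowest, median and highest value in A-CRF, against 5.90, 5.99 and 6.18 in Control. All 8 A-CRF arrays lay above the Control median and 7 above the highest Control array. The values within A-CRF were uneven, with A-CRF 1, 5 and 6 at 6.15, 6.19 and 6.24 and the other 5 arrays at 6.46 or more. A-CRF averaged 6.42 ± 0.21 (SD, n = 8) and Control 6.03 ± 0.12 (SD, n = 6), a log2 fold change of 0.39 ± 0.09 (SE, limma, adjusted p = 0.0378), or 1.31-fold higher in A-CRF. Macrophage markers moved with it, 8 of 13 being higher in A-CRF and none lower, and their part in the Nt5e value was not tested. The call was close to the threshold. It was lost in the fit with the clock score. Without A-CRF 2, 3, 4, 7 or 8 or any Control array except Control 2 it was lost too (highest adjusted p = 0.0911). With a fat marker score as a covariate it was also lost, at a log2 fold change of 0.37 ± 0.09 (SE, adjusted p = 0.0615). The exact rank-sum test gave an adjusted p of 0.0874, but could not call a gene whose groups overlapped.

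The windows in front of these 2 genes are shown because theirs were the transcripts that passed, 1 in each direction. They are RefSeq sequences of build GRCr8, 300 bases each, from 250 bases before the annotated start to 50 after it, written 5′ to 3′ on the gene's strand. Capitals mark the GC box GGGCGG, the motif bound by Sp-family factors, on either strand. The Adk window is chr15:3295696-3295995 on the minus strand and the Nt5e window chr8:98150675-98150974 on the plus strand.
Adk: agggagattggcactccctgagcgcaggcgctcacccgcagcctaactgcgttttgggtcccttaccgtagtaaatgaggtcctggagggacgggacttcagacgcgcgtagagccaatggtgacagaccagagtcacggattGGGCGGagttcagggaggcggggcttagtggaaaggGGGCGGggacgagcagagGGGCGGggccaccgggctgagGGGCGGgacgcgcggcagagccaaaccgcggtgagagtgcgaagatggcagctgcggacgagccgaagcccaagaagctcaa
Nt5e: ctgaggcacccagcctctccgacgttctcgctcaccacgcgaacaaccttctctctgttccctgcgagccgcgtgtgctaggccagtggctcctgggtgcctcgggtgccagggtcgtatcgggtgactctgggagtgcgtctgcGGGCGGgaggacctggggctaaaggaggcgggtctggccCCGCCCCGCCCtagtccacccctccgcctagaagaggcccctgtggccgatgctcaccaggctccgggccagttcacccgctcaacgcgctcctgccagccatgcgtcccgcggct
The Adk window held 4 such matches, all on the gene's strand, and the Nt5e window 3, of which 1 lay on the gene's strand and 2 overlapping ones on the opposite strand. Of the 33469 promoter windows of the same length in the table, 33.1% held at least 1 match. The array did not measure promoter activity. Windows were found for 8 of the 10 genes.

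Among the other salvage enzymes, Aprt, the enzyme that takes up adenine itself, did not pass. It read 9.40, 9.53 and 9.78 log2 units as the lowest, median and highest value in A-CRF, against 9.32, 9.49 and 9.73 in Control, ranges that coincide almost fully. Its log2 fold change was 0.05 ± 0.06 (SE, adjusted p = 0.843), with a 95% confidence interval of -0.09 to 0.18, so a rise beyond 0.18 lies outside it. Hprt1, which salvages hypoxanthine and guanine and often serves as a reference gene in PCR, read 8.14, 8.56 and 8.63 in A-CRF, against 8.57, 8.70 and 8.83 in Control. All 8 A-CRF arrays were below the Control median and 6 were below every Control array, yet the log2 fold change of -0.20 ± 0.07 (SE) did not pass (adjusted p = 0.163). A-CRF 4 was far below the rest at 8.14, and without it the log2 fold change was -0.15 ± 0.04 (adjusted p = 0.113). That was the lowest adjusted p among the fits that left out 1 array. In the other alternatives it ranged from 0.053 with array weights to 0.532 with the clock score. Without the 3 arrays of high GAPDH difference it was 0.0625. Pnp, which splits inosine and guanosine into base and sugar phosphate, read 9.61, 9.70 and 9.83 in A-CRF, against 9.43, 9.56 and 9.78 in Control. All 8 A-CRF arrays were above the Control median, and the log2 fold change was 0.13 ± 0.05 (SE, adjusted p = 0.221). A second probe set of Pnp had a log2 fold change of 0.01 ± 0.02 (SE), a smaller value than that of the brighter one.

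Of the enzymes that take purines towards urate, Xdh had the largest difference of the 8 genes that did not pass. Xdh encodes xanthine dehydrogenase, which also has an oxidase form that makes superoxide and is the enzyme that oxidises adenine. It read 7.66, 7.83 and 8.30 log2 units as the lowest, median and highest value in A-CRF, against 7.26, 7.56 and 7.72 in Control. All 8 A-CRF arrays lay above the Control median and 5 above every Control array, with A-CRF 3 the highest. A-CRF averaged 7.86 ± 0.21 (SD, n = 8) and Control 7.52 ± 0.18 (SD, n = 6), a log2 fold change of 0.34 ± 0.10 (SE, limma, adjusted p = 0.0983) with a 95% confidence interval of 0.13 to 0.56. Without A-CRF 3 it was 0.28 ± 0.08 (adjusted p = 0.111). Ada, which deaminates adenosine to inosine, read 5.56, 5.66 and 5.90 in A-CRF, against 5.48, 5.56 and 5.63 in Control. Of the 8 A-CRF arrays 6 were above every Control array, at a signal close to the lowest of the table, and the log2 fold change was 0.13 ± 0.05 (SE, adjusted p = 0.185). Ampd3, an AMP deaminase that competes with the route from AMP to adenosine, differed by 0.02 ± 0.04 (SE, adjusted p = 0.868), with A-CRF arrays at 5.60 to 5.81 and Control arrays at 5.62 to 5.80. Its ranges coincided, and the sign turned in the fits with array weights and without the 3 arrays of high GAPDH difference.

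On the extracellular side, Entpd1, also called CD39, which removes phosphates from ATP and ADP upstream of Nt5e, did not pass. It read 5.49, 5.60 and 5.75 log2 units as the lowest, median and highest value in A-CRF, against 5.60, 5.65 and 5.70 in Control, with a log2 fold change of -0.03 ± 0.04 (SE, adjusted p = 0.788). Its Control mean was 0.83 log2 units above the lowest value of the table, near the bottom of the scale. Adora2a, an adenosine receptor that raises cyclic AMP in leukocytes and vessels, read 5.52, 5.59 and 5.64 in A-CRF, against 5.58, 5.63 and 5.72 in Control. The log2 fold change was -0.05 ± 0.02 (SE, adjusted p = 0.419), and -0.02 ± 0.02 (adjusted p = 0.866) at a second, dimmer probe set. Both Adora2a probe sets lay in the dim range, at means 0.79 and 0.52 log2 units above the lowest value.

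**Figure D2:**
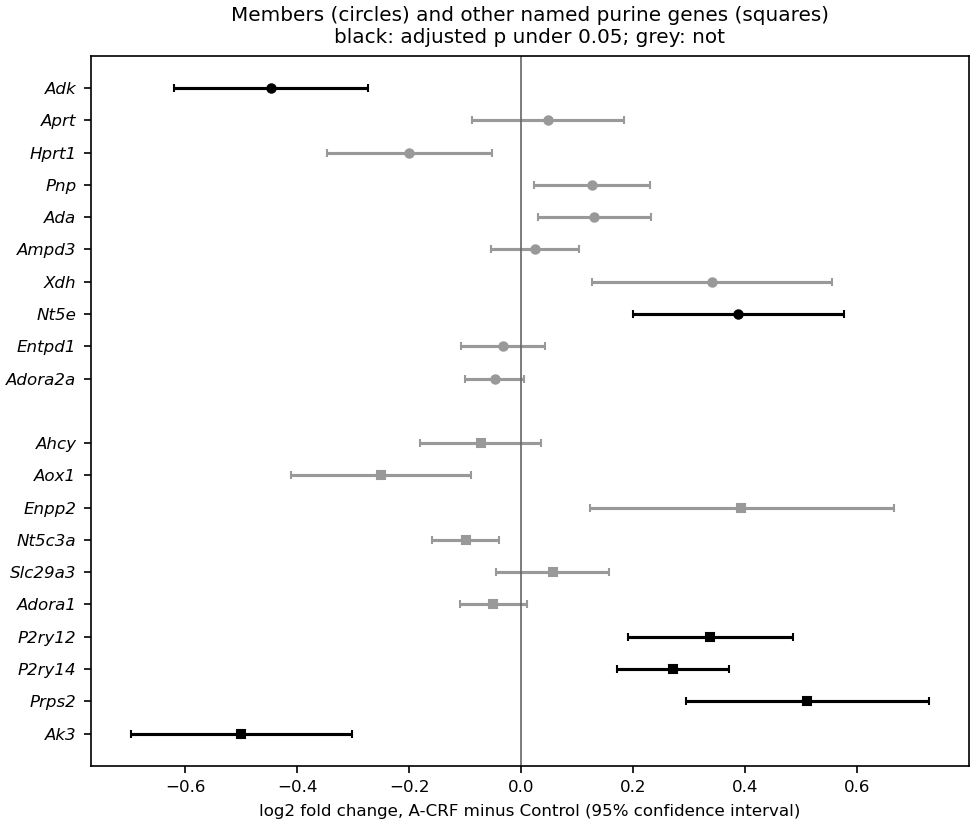
Log2 fold change, A-CRF minus Control, with its 95% confidence interval from limma, for the 10 genes (circles, above) and for 10 further purine genes named by rule (squares, below). Black marks an adjusted p under 0.05. Adk (-0.45) and Ak3 (-0.50) lie left of 0 and Nt5e (0.39), P2ry12 (0.34), P2ry14 (0.27) and Prps2 (0.51) right of it.

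The other genes of purine handling were taken from 9 lists that cover 96 genes with the 10 above, also chosen with earlier results known. Of 71 further genes measured, 3 were higher and 1 lower in A-CRF, and 67 did not pass. That is 5.63% called, against 2.99% of all genes, and their median log2 fold change of -0.0007 was near 0, as was that of all genes, -0.0012. Prps2 makes phosphoribosyl pyrophosphate, the sugar donor that Aprt, Hprt1 and new purine synthesis all use. It read 7.64, 8.05 and 8.50 log2 units as the lowest, median and highest value in A-CRF, against 7.44, 7.52 and 7.72 in Control, with 7 of 8 A-CRF arrays above every Control array. The log2 fold change was 0.51 ± 0.10 (SE, limma, adjusted p = 0.0210). A second probe set of Prps2 also passed, at 0.57 ± 0.13 (adjusted p = 0.0395), and its dimmest one did not, at 0.24 ± 0.13 (adjusted p = 0.448). On the dimmest one, the arrays of high GAPDH difference were the lowest, A-CRF 1 and 4 at 5.52 and 5.63 and Control 1 at 5.57. The other arrays read 6.08 to 6.42 in A-CRF and 5.83 to 5.98 in Control. The part of RNA quality in this was not tested. With the mean of its probe sets the call of Prps2 was lost (adjusted p = 0.0646), as it was without Control 5 (adjusted p = 0.0529). The other 13 measured genes of new purine synthesis did not pass, and 4 of all 14 had an unadjusted p under 0.05. Besides Prps2 these were Prps1 (-0.105, adjusted p = 0.114), Adss1 (-0.09, 0.105) and Gmpr2 (-0.11, 0.331), each lower in A-CRF. For Prps1, 6 of 8 A-CRF arrays lay below every Control array.

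Ak3 encodes a mitochondrial adenylate kinase family member that uses GTP to phosphorylate AMP. It read 7.74, 8.16 and 8.31 log2 units as the lowest, median and highest value in A-CRF, against 8.46, 8.53 and 8.76 in Control, so the groups did not overlap. The log2 fold change was -0.50 ± 0.09 (SE, limma, adjusted p = 0.0144), a 1.41-fold lower level in A-CRF, and it passed whichever array was left out (highest adjusted p = 0.0411). A second Ak3 probe set was at -0.26 ± 0.10 (SE, adjusted p = 0.206). On it the arrays of high GAPDH difference were the lowest of their groups, A-CRF 1 and 4 at 6.19 and 6.34 and Control 1 at 6.48. The other arrays read 6.49 to 6.76 in A-CRF and 6.78 to 6.93 in Control. Whether RNA quality played a part was not tested. The other 3 measured adenylate kinases did not pass, and Ak3 was the only 1 of the 4 at an unadjusted p under 0.05.

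Of 13 measured nucleotide receptors, 4 of which had an unadjusted p under 0.05, 2 rose and 11 did not pass. The macrophage markers that were higher in A-CRF, 8 of 13, moved with these 2 as with Nt5e, and their part in the receptor values was not tested. P2ry14, a receptor for UDP-sugars, read 5.65 to 6.0 log2 units in A-CRF, against 5.49 to 5.62 in Control, with no overlap and a log2 fold change of 0.27 ± 0.05 (SE, limma, adjusted p = 0.0119). P2ry12, the ADP receptor of platelets and microglia, read 5.66 to 6.15 in A-CRF, against 5.30 to 5.59 in Control, with a log2 fold change of 0.34 ± 0.07 (SE, adjusted p = 0.0251). Its second probe set was at 0.08 ± 0.03 (SE, adjusted p = 0.302). Both receptors had means within 1 log2 unit of the lowest value of the table, and P2ry12 lost the call without Control 2 (adjusted p = 0.0529) or Control 3 (0.0523). With the clock score as a covariate P2ry14 still passed (adjusted p = 0.0474), whereas Prps2 and Ak3 (0.0782 each) and P2ry12 (0.0978) did not. The log2 fold changes in that fit were 0.55 ± 0.12 for Prps2 and 0.34 ± 0.08 for P2ry12, close to those without the covariate but with wider errors, and -0.38 ± 0.08 for Ak3 (SE), which was smaller in size. Prps2 did not pass the exact rank-sum test (adjusted p = 0.0635), which could not call a gene whose groups overlapped.

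In 6 lists no gene besides the 10 passed. For salvage, 0 of 6 further genes passed limma, with 3 of all 10 measured genes of the list at an unadjusted p under 0.05, and the largest difference was in Ahcy, which releases adenosine from adenosylhomocysteine (-0.07 ± 0.05, SE, adjusted p = 0.60). For deaminases and oxidation it was 0 of 6, with 3 of all 9 at an unadjusted p under 0.05, and Aox1, an aldehyde oxidase related to Xdh, at -0.25 ± 0.08 (adjusted p = 0.109). All 8 A-CRF arrays lay below the Control median for Aox1. For extracellular breakdown it was 0 of 11, with 5 of all 13 at an unadjusted p under 0.05, and Enpp2, autotaxin, which makes lysophosphatidic acid, at 0.39 ± 0.13 (adjusted p = 0.134). For cytosolic nucleotidases it was 0 of 5, with 1 at an unadjusted p under 0.05, Nt5c3a, at -0.10 ± 0.03 (adjusted p = 0.0866). For transporters of nucleosides and urate it was 0 of 10, with 1 at an unadjusted p under 0.05. That was Abcg2 (0.05 ± 0.02, adjusted p = 0.274), whose mean was within 1 log2 unit of the lowest value. The largest difference was in Slc29a3, a lysosomal nucleoside transporter (0.06 ± 0.05, adjusted p = 0.695). For adenosine receptors it was 0 of 2, with 0 at an unadjusted p under 0.05, and Adora1 at -0.05 ± 0.03 (adjusted p = 0.463). None of the 3 measured adenosine receptors exceeded the lowest value by over 1 log2 unit in Control.

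**Figure D3:**
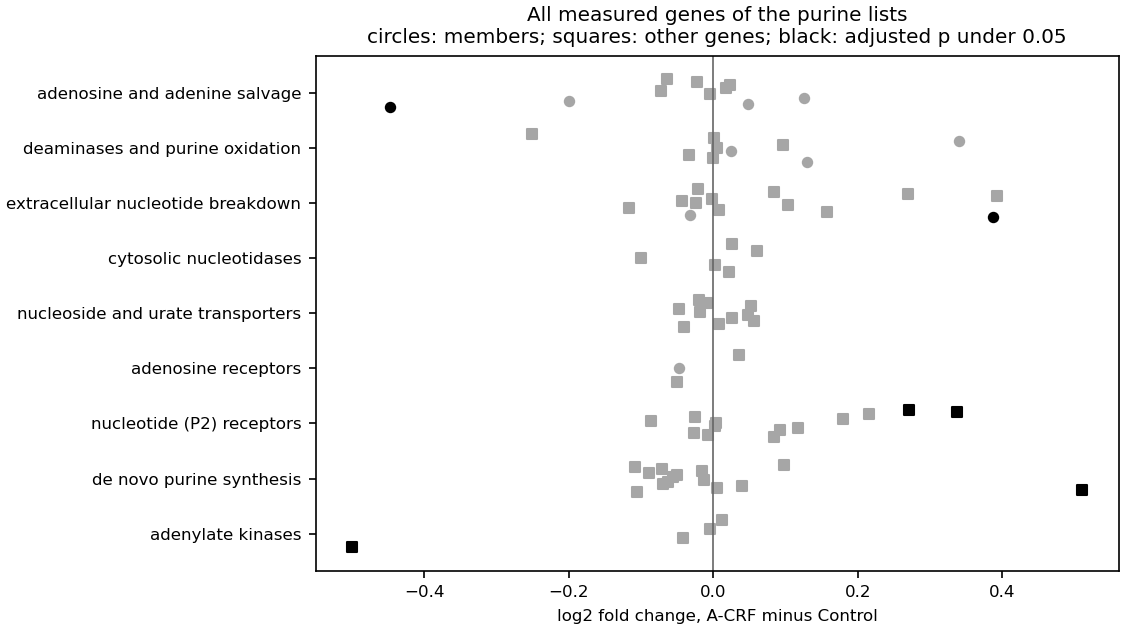
Log2 fold change, A-CRF minus Control, of every measured gene of the 9 purine lists, 1 row per list, with the 10 genes as circles and the others as squares. Black points, 1 to 2 per list in 5 of the lists, passed an adjusted p of 0.05, and most grey points lie close to 0.

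The makeup of the tissue was read from marker lists. The 10 smooth muscle markers had list means of 9.45 to 9.86 log2 units in A-CRF, against 9.67 to 10.23 in Control, and all 10 exceeded the table's lowest value by over 1 log2 unit in Control. Of them Myh11 fell, by 0.29 log2 units, and 9 did not pass, with 3 of the 10 at an unadjusted p under 0.05 and a list median of -0.20 log2 units. Tagln was lower on all 8 A-CRF arrays than on every Control array, at -0.26 ± 0.07 (SE, adjusted p = 0.0594). Of 13 measured macrophage markers 8 rose, 5 did not pass, and 12 exceeded the lowest value by over 1 log2 unit in Control. They had list means of 7.13 to 7.53 in A-CRF, against 6.75 to 6.93 in Control, which do not overlap, and their summed level was 11.36 to 12.08 log2 units in A-CRF, against 10.97 to 11.17 in Control. A-CRF 3, with the highest macrophage mean at 7.53, was the highest A-CRF array for 4 of the 10 genes, Aprt, Ada, Xdh and Ampd3, and second for Nt5e at 6.68. A-CRF 3 also had the lowest smooth muscle mean of all arrays, at 9.45. A-CRF 4, second in macrophage mean at 7.46, was the highest A-CRF array only for Pnp. A link between these lists and the genes was not tested. Limma called 0 of 10 endothelial markers (1 at an unadjusted p under 0.05) and 0 of 8 adventitial fibroblast markers (2 at an unadjusted p under 0.05). Endothelial means were 6.47 to 6.71 in A-CRF and 6.45 to 6.61 in Control, and fibroblast means 9.27 to 9.47 in A-CRF and 9.12 to 9.30 in Control. White adipocyte means were 6.83 to 8.26 in A-CRF and 7.43 to 8.37 in Control, and brown adipocyte means were 5.80 to 7.22 in A-CRF and 6.28 to 7.35 in Control, with 0 of 9 and 0 of 6 markers called and 0 at an unadjusted p under 0.05 in both. Of T cell markers, 0 of 8 were called and 0 had an unadjusted p under 0.05, and 2 of the 8 exceeded the lowest value by over 1 log2 unit in Control. Erythroid and platelet lists had 0 of 5 and 0 of 4 called (2 and 1 at an unadjusted p under 0.05). In Control, 1 erythroid and 2 platelet markers exceeded the lowest value by over 1 log2 unit. That erythroid marker, Hbb, was at -0.85 ± 0.27 (SE, adjusted p = 0.125). Of 7 skeletal muscle markers only Ckm was called, at -0.41 log2 units, with 3 at an unadjusted p under 0.05. Acta1 of that list went the other way, at 0.43 ± 0.19 (SE, adjusted p = 0.302), and the list median was -0.01.

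**Figure D4:**
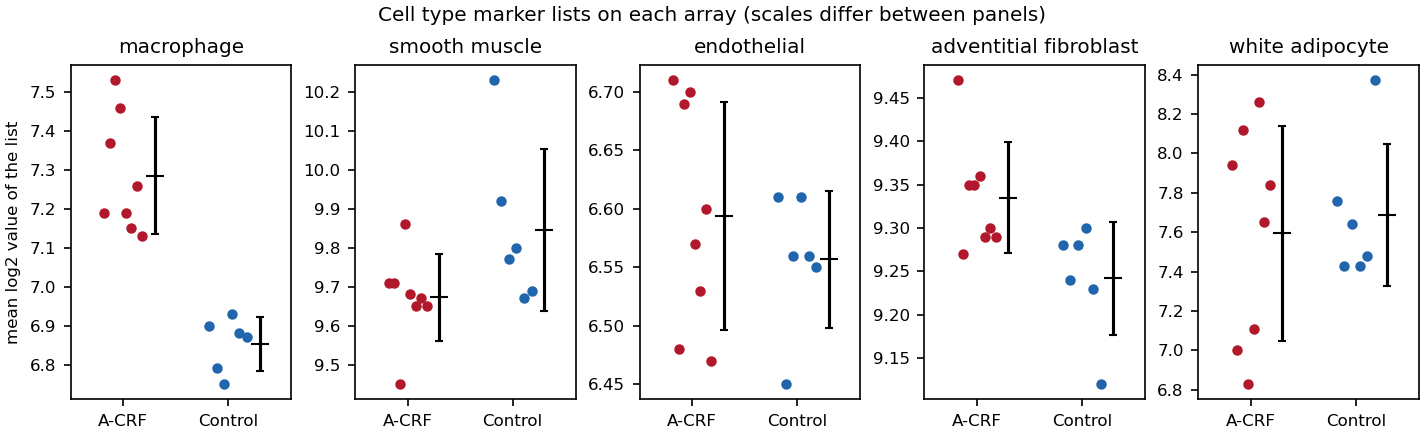
Mean log2 value of 5 cell type marker lists on each array, A-CRF (red, 8 arrays) and Control (blue, 6 arrays), with the group mean and SD as a black bar. The macrophage means of all A-CRF arrays (7.13 to 7.53) lie above those of Control (6.75 to 6.93), and the other 4 lists overlap.

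The profiles closest to each gene were sought after each group's mean had been subtracted, over 14 arrays and 8150 other genes that exceeded the lowest value by over 1 log2 unit, as a description with no test. For Adk they were Tomm6 (Pearson r = 0.927) and Atp5pf (0.918), a subunit each of the mitochondrial import pore and of ATP synthase, and Adamts15 (0.887). None of these 3 passed between the groups. For Nt5e the closest were Cyld (0.830), Cyba (0.780) and Ehd4 (0.775). Of the 6 genes searched, Nt5e had the lowest such values, and for Cyba the correlation was 0.885 among A-CRF arrays and 0.281 among Control arrays. For Xdh they were Enpp3 (0.854), an ecto-nucleotide pyrophosphatase from the extracellular list, the complement protease C1s (0.850) and the macrophage scavenger receptor Cd163 (0.843), which is also 1 of the 13 macrophage markers and rose by 0.35 log2 units (adjusted p = 0.0226). Among A-CRF arrays alone the correlation with Xdh was 0.950 for Enpp3, 0.880 for C1s and 0.959 for Cd163, and among Control arrays it was 0.659, 0.838 and 0.563 in the same order. A-CRF 3 was the highest array for Xdh, Enpp3 and Cd163. Aprt went with Prtfdc1 (0.944), a relative of Hprt1, with Rab13 (0.935) and Pros1 (0.929). Hprt1 went with Ssr3 (0.937), Psma2 (0.927) and Matr3 (0.922), and Pnp with Thbs3 (0.887), Galt (0.847) and Coro7 (0.840). The points share their hybridisation and RNA quality within an array, and the 4 dim genes were not searched.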

How the data were processed

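Total RNA of 14 thoracic aorta samples was amplified from oligo-dT and labelled with biotin, per the labels' protocols, so signal comes mainly from transcript 3' ends. The authors deposited 1 log2 value per probe set and array, from 4.82 to 12.64. The base of 2 was inferred from that range. PLIER is named in the submitters' processing notes, and its version and role, the background correction, the normalization and any offset are unstated in the sources used here. From 31099 probe sets 57 manufacturer controls were left out. The platform annotation gave 1 symbol to 20826 probe sets, several to 436 and none to 9780, and a RefSeq table matched 20758 by Entrez identifier, of which 0 changed symbol. The array files name no build, and the only coordinates given are those of the promoter windows, from the RefSeq table of build GRCr8.

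Groups were compared with lmFit and eBayes of limma (version 3.58.1, R version 4.3.3), two-sided, with group as the only factor, and the script was tested on simulated data. Genes were named by rule: the 10 genes always, and from each of 9 purine lists up to 4 further genes past the threshold, or the 1 with the largest change. The 3 closest profiles per gene were named too. The 10 genes and all lists were chosen with earlier results of these data known. Alternatives were another scaling, an offset of 16, a filter at the 40th percentile of mean signal, other variance models, array weights, an exact rank-sum test, other probe set rules and leaving out arrays. Covariates added after the data were seen were the mean standardized value of the white adipocyte markers, and that of Dbp, Nr1d1, Nr1d2, Per3 and Tef minus that of Bmal1, Npas2 and Clock. Arrays have no sequencing depth, and their number limits the precision.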

Additional observations from a re-analysis of the deposited data

Results flagged for a closer look

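On the second Adk probe set, A-CRF 7 read 6.18 log2 units, above the nearest A-CRF array at 5.99 by a gap wider than the 95% limit for 8 samples. For Hprt1, A-CRF 4 read 8.14, below the nearest A-CRF array at 8.45 by the same criterion. A-CRF 4 was also 1 of the 3 arrays with a high GAPDH difference. Among 46 combinations of probe set and group examined, 2 stood apart in this way, and chance gives about 1 in 20.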

How the results depend on the processing

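The count of 2 called genes among the 10 ranged from 1 to 2 when 1 array was left out, and Nt5e was the gene lost each time. A fat marker covariate left 1, and the clock gene covariate 0 (3 at an unadjusted p under 0.05). The exact rank-sum test also gave 0 (6 at an unadjusted p under 0.05). It could call only probe sets with groups fully apart, which none of the 10 genes had. In the other 9 alternatives the count was 2. The count of 4 among the further purine genes ranged from 3 to 6 without 1 array, and was 8 with array weights and 1, P2ry14, with the clock gene covariate. Over all probe sets 636 were called, 307 to 979 without 1 array, 1457 with array weights and 77 with the clock gene covariate. The signs of Adk (-0.49 to -0.33) and Nt5e (0.32 to 0.43) were the same in all 26 alternatives. Ampd3 turned to -0.0097 with array weights and to -0.0059 without the 3 arrays of high GAPDH difference, at no call in either. The cause of these shifts was not tested. No paired analysis was possible because the sample labels give the groups no shared numbers. Signal limits Ada, Ampd3, Entpd1 and Adora2a most, since their means, like those of 59% of all probe sets, exceeded the table's lowest value by under 1 log2 unit.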
